A study of Mus musculus with 7 samples.

Results

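The plasminogen and clotting systems were followed through 9 genes in undifferentiated pleomorphic sarcoma cells of 2 mouse models: the activators Plau and Plat, the receptor Plaur, the serpins Serpine2, Serpinb2 and Serpinf1, and the clotting genes F3, Tfpi and Thbd. They were taken by symbol from the 35727 genes of the deposited table, and all 9 had enough counts to be tested. In the libraries labelled p53KO_Vgll3OE, the mRNAs of both activators were higher, by 3.46-fold (Plau) and 2.81-fold (Plat), as were Serpinf1 (4.12-fold) and the clotting inhibitor Tfpi (1.70-fold). The urokinase receptor Plaur, tissue factor (F3) and thrombomodulin (Thbd) were lower there, by 1.46-fold, 3.20-fold and 7.55-fold. Serpine2 and Serpinb2 did not pass the test.

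Both models began as mesenchymal stem cells of female C57/Bl6 mice lacking p53, given a retroviral vector for either Ccne1, a cyclin that drives entry into DNA replication, or Vgll3, a cofactor of TEAD transcription factors. Per the labels, each line was passaged under the skin of female wild-type C57/Bl6 mice, grown briefly in culture, transplanted again, and sorted from the tumours as cells positive for red fluorescent protein (RFP). There were 4 libraries of the Ccne1 model (p53KO_Ccne1OE) and 3 of the Vgll3 model (p53KO_Vgll3OE). Both groups lack p53 and carry a vector, and no untransduced group was used here. The strain and age of the mice that bore the final tumours are not stated in the labels, which describe each model as a cell line and do not tie libraries to separate animals. So a p-value reflects only how these libraries vary, possibly for technical reasons, and an effect of the transduced gene and of anything else that sets the lines apart cannot be told apart.

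Plasminogen activators are serine proteases that cut plasminogen into plasmin, which dissolves fibrin and cleaves matrix proteins. Urokinase (Plau) acts mainly at the cell surface, bound to its receptor, and tissue-type activator (Plat) mainly on fibrin, while serpins trap such proteases in complexes that cannot be reversed. Clotting starts when tissue factor binds factor VII, is braked by tissue factor pathway inhibitor (Tfpi), and is turned toward the protein C anticoagulant pathway by thrombomodulin. Several of these genes are known from vessel lining and blood cells as well as from tumour cells.

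Library totals ran from 21725890 to 53610300 counts. Levels are CPM, a gene's share of its library's counts on a common scale, and each comparison is Vgll3-labelled over Ccne1-labelled, tested with the quasi-likelihood test of edgeR at a Benjamini-Hochberg adjusted p of 0.05 over 13740 genes. Of all tested genes 51.9% passed, 25.1% higher and 26.8% lower in the Vgll3-labelled libraries. Vgll3 itself was 50.7 ± 8.56 CPM (SD, n = 4) and 252 ± 34.7 CPM (SD, n = 3). Ccne1 was 12.7 ± 5.61 (SD, n = 4) and 14.9 ± 2.15 CPM (SD, n = 3), and did not pass (edgeR adjusted p = 0.609). The Ccne1 overexpression of the label was thus not seen in the counts against the Vgll3-labelled libraries, with no untransduced group to compare. Whether RNA from the vector is counted under mouse Ccne1 was not tested. Groups are called by their labels. Trp53 was at 66.4 ± 2.69 and 70.7 ± 4.32 CPM, which checks nothing, since the labels do not say which part of the gene was deleted. Means ± SD given below are over these same 4 and 3 libraries. Vgll3 replicate 3 stood apart from its group, with a Pearson r across genes of 0.956 and 0.960, where the remaining within-group pairs reached 0.978 to 0.987. Of 12 macrophage, 6 neutrophil and 8 T and B cell markers, 9, 1 and 2 were tested, and 0 passed in edgeR, at an unadjusted p of 0.05, in DESeq2 or in limma-voom. The defining markers of platelets, neutrophils and T cells (Pf4, Ly6g and Cd3e) were at most 0.0929 CPM in any library. Macrophage markers (Cd68 highest) summed to 8.32 to 19.1 CPM in the Ccne1-labelled and 8.72 to 18.9 CPM in the Vgll3-labelled libraries. In the same order, neutrophil markers (Cxcr2 highest) summed to 0.596 to 1.0004 and 1.007 to 1.54 CPM, without overlap. T and B cell markers (Cd79a highest) summed to 0.836 to 1.73 and 1.56 to 5.62 CPM. The part of such cells in the results was not tested. Of 8 platelet markers 1 could be tested, Itga2b, lower at 0.227 to 0.568 against 0.835 to 1.24 CPM (edgeR adjusted p = 0.0386). Of 8 mesenchymal markers 4 were higher and 3 lower, and Vim, Col1a1 and Prrx1 were at 188 CPM or more in all 7 libraries. The 8 summed to 25242 to 32004 CPM in the Ccne1-labelled and 47476 to 57229 CPM in the Vgll3-labelled libraries, so their level differed between groups.

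Promoter sequence was at hand for 6 of the 9 genes, from RefSeq on GRCm38.p6, with no entry for Plau, Plat and Thbd. The 5 windows of 250 bases before the transcript start printed here are those of 2 lowered genes (F3 and Plaur), 2 raised genes (Serpinf1 and Tfpi) and Serpinb2, which was not called but holds the motif. Capitals mark TGANTCA, the AP-1 motif, searched on both strands, which it reads alike.
F3 (chr3:121723287-121723536, plus strand): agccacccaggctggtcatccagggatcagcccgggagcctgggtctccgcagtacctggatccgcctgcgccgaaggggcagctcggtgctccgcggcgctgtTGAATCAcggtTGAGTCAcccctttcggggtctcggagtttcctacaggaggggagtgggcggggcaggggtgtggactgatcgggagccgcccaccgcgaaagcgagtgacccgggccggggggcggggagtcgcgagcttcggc
Plaur (chr7:24462233-24462482, plus strand): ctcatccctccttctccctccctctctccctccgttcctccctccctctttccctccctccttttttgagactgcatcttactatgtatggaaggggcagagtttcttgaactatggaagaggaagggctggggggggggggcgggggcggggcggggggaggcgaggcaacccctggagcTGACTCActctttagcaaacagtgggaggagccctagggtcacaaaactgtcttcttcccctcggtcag
Serpinb2 (chr1:107511173-107511422, plus strand): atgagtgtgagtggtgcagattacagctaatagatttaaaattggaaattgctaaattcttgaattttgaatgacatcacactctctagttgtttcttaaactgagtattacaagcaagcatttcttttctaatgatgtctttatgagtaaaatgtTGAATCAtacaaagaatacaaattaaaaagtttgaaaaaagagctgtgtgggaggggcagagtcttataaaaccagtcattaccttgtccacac
Serpinf1 (chr11:75422624-75422873, minus strand): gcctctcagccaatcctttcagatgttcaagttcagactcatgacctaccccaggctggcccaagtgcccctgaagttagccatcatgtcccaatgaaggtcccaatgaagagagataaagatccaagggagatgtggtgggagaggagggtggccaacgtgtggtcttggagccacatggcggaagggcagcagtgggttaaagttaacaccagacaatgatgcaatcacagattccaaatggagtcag
Tfpi (chr2:84476760-84477009, minus strand): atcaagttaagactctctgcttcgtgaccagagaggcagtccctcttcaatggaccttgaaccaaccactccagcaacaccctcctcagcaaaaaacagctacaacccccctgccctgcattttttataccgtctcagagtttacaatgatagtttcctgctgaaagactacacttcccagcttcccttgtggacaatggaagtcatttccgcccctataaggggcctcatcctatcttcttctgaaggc
F3, lower in the Vgll3-labelled libraries, held 2 matches, whose first bases lay 146 and 135 bases before the start. Plaur, also lower, held 1 match 69 bases before the start, and Serpinb2, which was not called, held 1 at 94 bases. Serpinf1 and Tfpi, both higher, and Serpine2, not called, held 0. Of 32851 promoter windows of this length in the same table, 6.75% held the motif. The TEAD motif GGAATG or its reverse complement was in 0 of these 6 genes' windows and in 12.6% of all windows. GGGCGG, the SP1 motif on either strand, was found 3 times in F3, 3 times in Plaur, 6 times in Serpine2 and 1 time in Tfpi, and in 32.7% of all windows. TATAAA on either strand was in the windows of Serpinb2 (29 bases before the start) and Tfpi (127 bases before the start, on the opposite strand), and in 12.4% of all. Tfpi and Serpinb2 each have another annotated start, whose windows gave the same AP-1 counts. For Serpinb2 both windows overlap and hold the same AP-1 match, 181 bases before the other start, so the equal count adds nothing. The window of the other Tfpi start held 0 TATAAA matches. These matches describe letters in a window and do not show that a factor was bound.

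Plau, the urokinase gene (ENSMUSG00000021822, mm10 chromosome 14, 20836660 to 20843385, plus strand, protein-coding), was at 86.9, 94.9, 103 and 118 CPM in Ccne1-labelled replicates 1 to 4 and at 455, 411 and 176 CPM in Vgll3-labelled replicates 1 to 3. Every Vgll3-labelled library lay above every Ccne1-labelled one, but replicate 3 lay far below the other two, and the Vgll3-labelled coefficient of variation was 43.2% against 13.1%. The log2 fold change was 1.79 (SE 0.31, 95% interval 1.05 to 2.54, edgeR adjusted p = 0.00300), and 2.12 without Vgll3 replicate 3.

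Plat, the tissue-type activator (ENSMUSG00000031538, chromosome 8, 22757727 to 22782844, plus strand, protein-coding), was at 201, 134, 225 and 170 CPM in the Ccne1-labelled and 499, 543 and 493 CPM in the Vgll3-labelled libraries. Here the Vgll3-labelled libraries were tight (5.35% coefficient of variation) and replicate 3 did not stand apart from replicates 1 and 2. Plat had a log2 fold change of 1.49 (SE 0.16, 95% interval 1.13 to 1.85, edgeR adjusted p = 0.000115). In CPM, without scaling by length, Plat lay above Plau in every library. Scaled by exon length (all annotated exons of a gene joined, 2367 bases for Plau and 6241 for Plat), the Plau-to-Plat ratio was between 1.14 and 1.87 in the Ccne1-labelled and between 0.942 and 2.41 in the Vgll3-labelled libraries. Which of them leads thus depends on the length used, while the difference between groups does not. The Vgll3-labelled range took in the Ccne1-labelled one, and the log2 ratio differed by 0.17 (exact two-sided permutation p = 0.657 over 35 splits, adjusted p = 0.657 over 4 ratios).

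Plaur, the cell-surface receptor that holds urokinase (ENSMUSG00000046223, chromosome 7, 24462484 to 24475968, plus strand, protein-coding), went against its ligand. It was at 128, 128, 127 and 121 CPM in the Ccne1-labelled and 94.4, 87.8 and 76.5 CPM in the Vgll3-labelled libraries. The Ccne1-labelled libraries were nearly level (2.58% coefficient of variation, the smallest of the 9 genes in either group), and the groups did not overlap. The difference was small, 1.46-fold lower (log2 fold change −0.55, SE 0.08, 95% interval −0.73 to −0.36, edgeR adjusted p = 0.000580). Without Vgll3 replicate 3, the lowest library, it was −0.46.

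**Figure D1:**
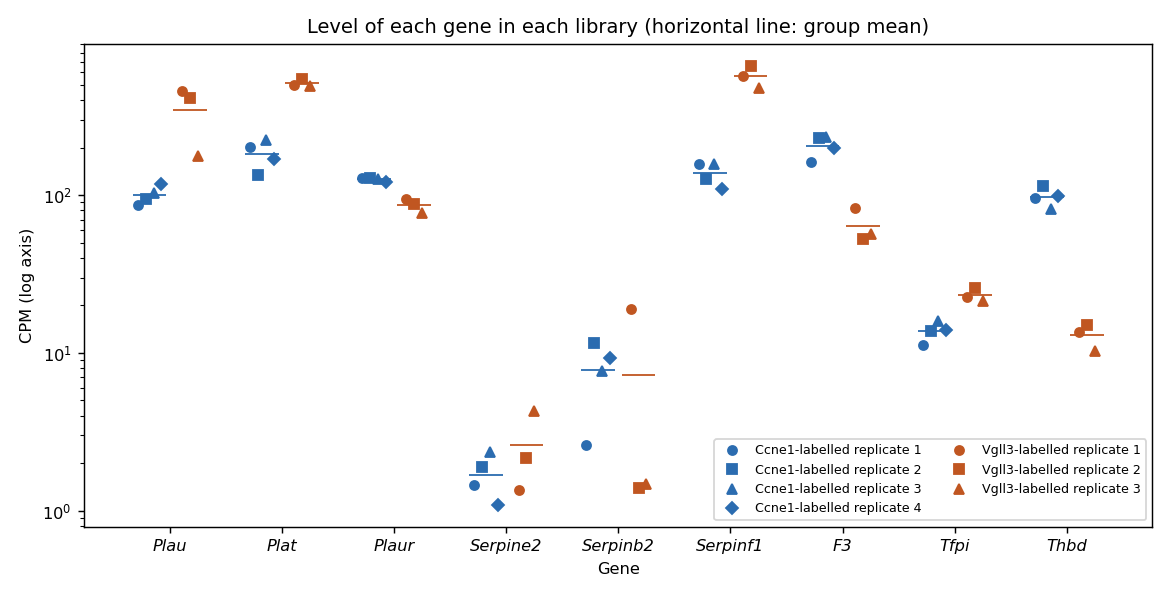
Level of the 9 genes in CPM on a log axis, with 1 point per library (blue, 4 Ccne1-labelled; orange, 3 Vgll3-labelled; the marker shape gives the replicate) and a line at each group mean. Groups are apart for 7 genes; Serpine2 and Serpinb2 overlap, and 1 Vgll3-labelled library of Serpinb2 is at 19.0 CPM while the other two are at 1.40 and 1.47 CPM.

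Of the 3 serpins among the 9 genes, Serpinf1 was the most abundant and the only one called. It encodes pigment epithelium-derived factor, a secreted serpin that does not inhibit proteases and is known for restraining vessel growth (ENSMUSG00000000753, chromosome 11, 75409769 to 75422701, minus strand, protein-coding). Its level was 158, 126, 157 and 109 CPM in the Ccne1-labelled and 565, 658 and 475 CPM in the Vgll3-labelled libraries. The lowest Vgll3-labelled library lay well above the highest Ccne1-labelled one, and the log2 fold change was 2.04 (SE 0.16, 95% interval 1.68 to 2.41, edgeR adjusted p = 2.70e-05).

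Serpine2, which encodes protease nexin-1, an inhibitor of thrombin and urokinase (ENSMUSG00000026249, chromosome 1, 79794197 to 79861180, minus strand, protein-coding), was near the bottom of the range. It was at 1.46, 1.89, 2.35 and 1.09 CPM in the Ccne1-labelled and 1.35, 2.15 and 4.31 CPM in the Vgll3-labelled libraries, from 30 to 129 counts per library. The groups overlapped, with the highest value in Vgll3 replicate 3. The log2 fold change was 0.61 with a 95% interval of −0.36 to 1.58 (edgeR adjusted p = 0.261), an interval that reaches 2.98-fold higher, and without Vgll3 replicate 3 it was 0.03.

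Serpinb2, which encodes plasminogen activator inhibitor type 2 (PAI-2, ENSMUSG00000062345, chromosome 1, 107511423 to 107535478, plus strand, protein-coding), varied within groups more than between them. It was at 2.59, 11.5, 7.71 and 9.26 CPM in the Ccne1-labelled and 19.0, 1.40 and 1.47 CPM in the Vgll3-labelled libraries. Vgll3 replicate 1 held the highest value of all 7 libraries (886 counts), and replicates 2 and 3 the lowest (37 and 44 counts). The log2 fold change was −0.08 with a 95% interval of −2.61 to 2.45 (edgeR adjusted p = 0.953). It became −2.45 (edgeR adjusted p = 0.0158) without Vgll3 replicate 1, and 0.39 or 0.42 without Vgll3 replicate 2 or 3 (edgeR adjusted p = 0.787 and 0.762), so leaving out Vgll3 replicate 1 makes it a call and the sign depends on the libraries used. Without Ccne1 replicate 2 or 4 the log2 fold change was also above 0, at 0.17 and 0.0048. In the annotation its bounds overlap Serpinb10 on the same strand, which was at most 0.167 CPM.

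Tissue factor, the cell-surface starter of clotting (F3, ENSMUSG00000028128, chromosome 3, 121723537 to 121735048, plus strand, protein-coding), was at 163, 230, 232 and 198 CPM in the Ccne1-labelled and 83.2, 52.4 and 56.7 CPM in the Vgll3-labelled libraries. The groups were apart, Vgll3 replicate 1 being the highest of its group. F3 was 3.20-fold lower (log2 fold change −1.68, SE 0.20, 95% interval −2.13 to −1.23, edgeR adjusted p = 0.000274). Tfpi, whose secreted product blocks the complex of tissue factor and factor VII (ENSMUSG00000027082, chromosome 2, 84432855 to 84476775, minus strand, protein-coding), went the other way. It was at 11.1, 13.9, 15.8 and 14.0 CPM in the Ccne1-labelled and 22.7, 25.9 and 21.3 CPM in the Vgll3-labelled libraries. Again no library of one group reached the other, and the log2 fold change was 0.76 (SE 0.13, 95% interval 0.47 to 1.05, edgeR adjusted p = 0.00110).

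Scaled by exon length, the level of Tfpi was 0.0279 to 0.0328 of that of F3 in the Ccne1-labelled and 0.126 to 0.229 in the Vgll3-labelled libraries. F3 mRNA thus exceeded Tfpi mRNA in all 7 libraries, with a smaller excess in the Vgll3-labelled ones. The log2 ratio rose from −5.01 ± 0.10 (SD, n = 4) to −2.55 ± 0.43 (SD, n = 3), a difference of 2.47 or 5.53-fold, with no overlap and an exact two-sided permutation p = 0.0286, the smallest that 35 splits allow. Adjusted over the 4 ratios it was 0.0571 and did not pass 0.05. With 35 splits it could have passed only if most of the 4 ratios had reached that smallest p.

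Thrombomodulin, the receptor that redirects thrombin from clotting to activation of protein C, had the largest fold change of the 9 genes in either direction (Thbd, ENSMUSG00000074743, chromosome 2, 148404466 to 148408188, minus strand, protein-coding). It was at 95.8, 114, 82.0 and 99.1 CPM in the Ccne1-labelled and 13.6, 14.95 and 10.2 CPM in the Vgll3-labelled libraries. Both groups were narrow (coefficients of variation of 13.5% and 18.9%) and far apart, with a log2 fold change of −2.92 (SE 0.16, 95% interval −3.28 to −2.55, edgeR adjusted p = 6.78e-06).

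In all, 4 of the 9 genes were higher and 3 lower, and 7 of 9 had groups that did not overlap. The table-wide background was 51.9% called and 55.8% without overlap, so the count by itself says little about these genes. The median log2 fold change was 0.61 over the 9 genes and 0.01 over all tested genes. For each of the 7 called genes the exact two-sided permutation p was 0.0286, the smallest possible here, and each kept its direction and call in all 13 alternative analyses, in which 28.8% to 54.4% of all genes were called. Without Vgll3 replicate 3, where 52.3% of all genes were called, these 7 were called again, with log2 fold changes of 2.12 (Plau), −0.46 (Plaur), 1.52 (Plat), 2.16 (Serpinf1), −1.59 (F3), 0.83 (Tfpi) and −2.77 (Thbd). Genes around them had medians nearer to 0. The median log2 fold change of the 10 nearest tested genes was between −0.29 (Thbd) and 0.23 (Serpinf1), and that of the chromosome between −0.30 (chromosome 11) and 0.05 (chromosome 7).

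**Figure D2:**
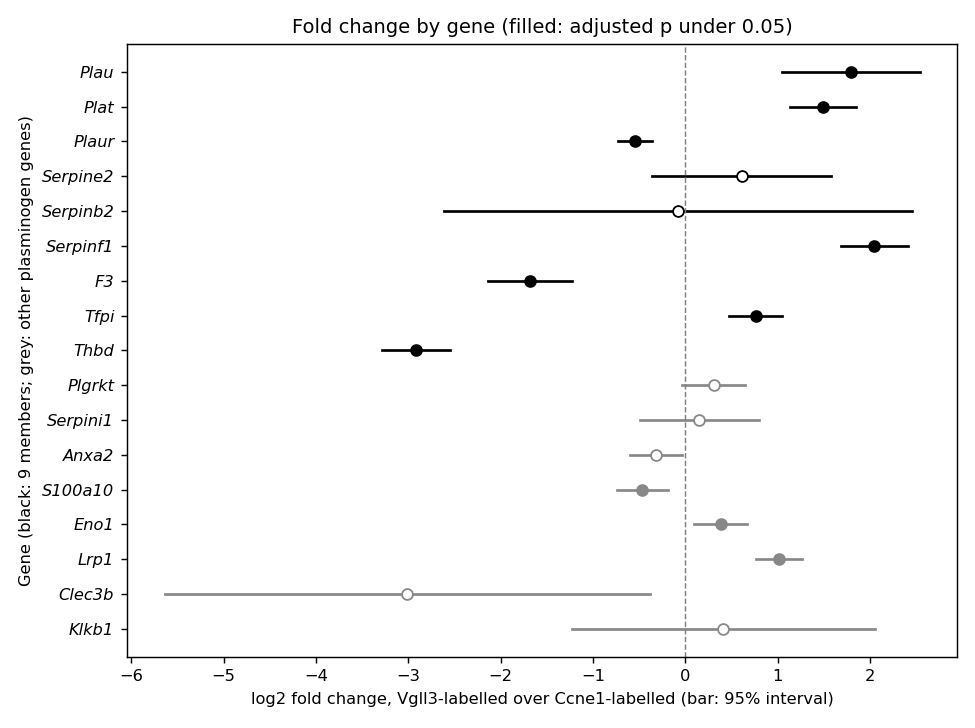
Log2 fold change, Vgll3-labelled over Ccne1-labelled, with 95% intervals, for the 9 genes (black) and 8 other tested genes of the plasminogen system (grey); filled points passed an edgeR adjusted p of 0.05. Thbd lies farthest to the left at −2.92 among the filled points and Serpinf1 farthest to the right at 2.04, while Serpinb2 and Clec3b have the widest intervals.

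Levels could be ranked between genes per kilobase of exon, counting all annotated exons of a gene. The transcripts in use may be shorter, so the order depends on this length. In CPM, without scaling by length, Plat lay above Plau in every library. In the Ccne1-labelled libraries F3 led at 81.4 ± 12.9 CPM per kilobase (SD, n = 4), followed by Serpinf1 at 58.3 ± 10.3, Plaur at 48.1 ± 1.24 and Plau at 42.5 ± 5.56, and each of these overlapped its neighbour in range. Plat (29.2 ± 6.31) and Thbd (26.3 ± 3.54) also overlapped each other, below Plau. In the Vgll3-labelled libraries Serpinf1 led at 240.0 ± 38.8 CPM per kilobase (SD, n = 3), above and apart from Plau at 147 ± 63.5, which overlapped Plat at 82.0 ± 4.39. Plaur (33.0 ± 3.46) and F3 (25.4 ± 6.61) came next, overlapping each other. Thbd was at 3.48 ± 0.655 CPM per kilobase, in the same range as Tfpi at 4.26 ± 0.440 and Serpinb2 at 3.10 ± 4.31, and Serpine2 was the lowest in both groups, at 0.205 ± 0.0658 (SD, n = 4) and 0.314 ± 0.185 (SD, n = 3).

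Most of the other tested plasminogen genes were not called. Of 17 further genes 8 could be tested, and 2 were higher and 1 lower, against 51.9% of all tested genes, with a median log2 fold change of 0.23. Plasminogen itself (Plg) had 0 counts in every library, so its own mRNA was below 3 counts, at most 0.136 CPM in the shallowest library.

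Serpine2, the inhibitor shared by thrombin and urokinase, was also set against Plau within each library. Per exon length its level was 0.00269 to 0.00660 of that of Plau in the Ccne1-labelled and 0.000853 to 0.00702 in the Vgll3-labelled libraries, so the groups overlapped. The log2 ratio was −7.73 ± 0.57 (SD, n = 4) and −8.91 ± 1.57 (SD, n = 3), a difference of −1.18 (exact two-sided permutation p = 0.257, adjusted p = 0.343 over 4 ratios). The difference was −2.05 without Vgll3 replicate 3 and −0.53 without Vgll3 replicate 1.

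**Figure D3:**
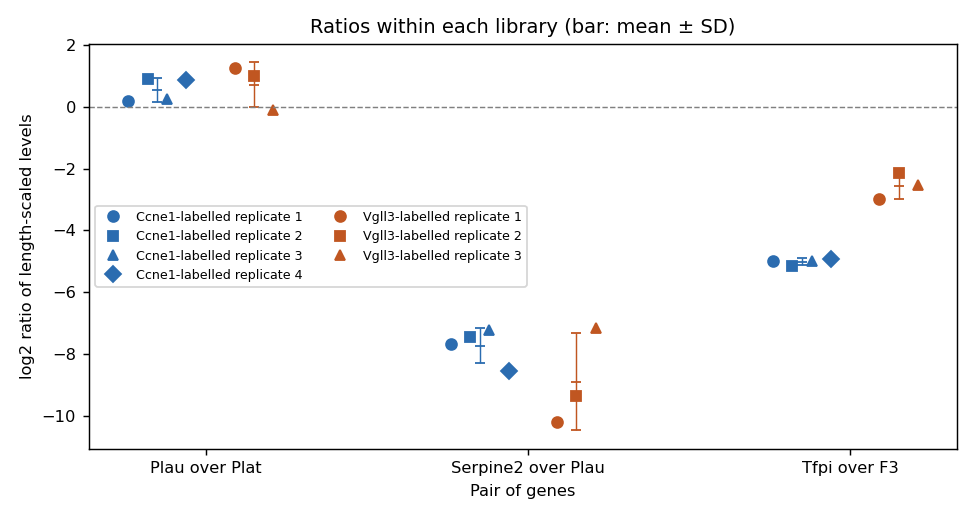
Log2 ratio of exon-length-scaled levels within each library for 3 pairs of genes (points, 1 per library; bars, mean ± SD of 4 Ccne1-labelled and 3 Vgll3-labelled libraries). Tfpi over F3 is higher in the Vgll3-labelled libraries (−2.55 against −5.01), and the other two pairs overlap.

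Lrp1, the endocytic receptor that clears activator-inhibitor complexes, was the clearest of the other plasminogen genes. It rose from 1986 ± 106 (SD, n = 4) to 4011 ± 583 CPM (SD, n = 3), a log2 fold change of 1.01 (SE 0.11, edgeR adjusted p = 0.000103). S100a10, a cell-surface plasminogen receptor in complex with annexin A2, fell by 0.47 on the log2 scale (753 ± 109 to 545 ± 49.2 CPM, edgeR adjusted p = 0.0118). Its partner Anxa2 was at 742 ± 122 and 594 ± 17.7 CPM (log2 fold change −0.32) and missed the threshold (edgeR adjusted p = 0.0547). Eno1, a glycolytic enzyme that also binds plasminogen, rose by 0.38 on the log2 scale (1622 ± 151 to 2110 ± 359 CPM, edgeR adjusted p = 0.0299). Eno1 was no longer called when Ccne1 replicate 1, 3 or 4 was left out, nor without Vgll3 replicate 1 or 2 (edgeR adjusted p from 0.0546 to 0.113).

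Thrombomodulin has partners in the protein C pathway. Procr, the receptor that presents protein C to it, was at 47.0, 64.4, 49.7 and 52.5 CPM in the Ccne1-labelled and 14.7, 13.4 and 17.5 CPM in the Vgll3-labelled libraries. Its log2 fold change was −1.81 with an SE of 0.14 (edgeR adjusted p = 1.84e-05). Pros1, which encodes protein S, the cofactor of activated protein C, was at 96.6, 100.4, 95.1 and 93.6 CPM and at 33.3, 26.0 and 18.7 CPM in the same order, and its log2 fold change was −1.89 with an SE of 0.17 (edgeR adjusted p = 6.10e-05). Groups were apart for both, as for Thbd. Proc, the gene of protein C, was at most 0.0619 CPM and could not be tested.

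Over the other 32 clotting genes, 18 were tested, 7 higher and 4 lower, with a median log2 fold change of 0.50, beside 51.9% called in the whole table. Besides Procr and Pros1 the lower ones were Mcfd2 (121 ± 4.38 to 56.2 ± 3.62 CPM, edgeR adjusted p = 9.84e-06), a subunit of the cargo receptor that carries factors V and VIII, and Serpind1, heparin cofactor II, named here after its values were seen, at 0.186 to 0.908 CPM in the Ccne1-labelled and at most 0.0755 CPM in the Vgll3-labelled libraries. Serpind1 passed the low-count filter only through the Ccne1-labelled libraries. Lman1, the other subunit of that cargo receptor, also named after its values were seen, was higher instead (195 ± 9.24 to 337 ± 28.8 CPM, edgeR adjusted p = 7.07e-05). Of the cargo, factor V (F5) was at most 0.155 CPM, and factor VIII (F8) was at 0.409 to 0.690 CPM in the Ccne1-labelled and 0.529 to 1.11 CPM in the Vgll3-labelled libraries and was not called (edgeR adjusted p = 0.235). Factor VII (F7), the partner of tissue factor, was at most 0.0909 CPM.

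The higher genes included receptors and surface regulators. F2r, the main thrombin receptor PAR1, was at 105, 82.0, 115 and 96.6 CPM in the Ccne1-labelled and 204, 271 and 197 CPM in the Vgll3-labelled libraries. The groups were apart, by 1.17 on the log2 scale (SE 0.14, edgeR adjusted p = 0.000216). Its relative F2rl2 had 2 counts over the 4 Ccne1-labelled libraries and 171 over the 3 Vgll3-labelled ones, there at a low level of 1.14 to 1.97 CPM. With library sizes scaled as for CPM, the ratio of summed counts was 111 (exact 95% interval 30.3 to 924, counting error only). The edgeR fold was 84.6 (95% interval 28.2 to 254, edgeR adjusted p = 0.000108). F2rl2 passed the low-count filter that chose the genes to test only through the Vgll3-labelled libraries. Its fold and adjusted p thus describe the gene and are no separate support for a difference. F2rl1, the protease receptor PAR2, was at 84.1 ± 16.4 and 83.0 ± 10.1 CPM, with a 95% interval of −0.36 to 0.33 for its log2 fold change (edgeR adjusted p = 0.935). Anxa5, which shields the anionic phospholipid on which clotting factors assemble, rose from 547 ± 31.9 to 1062 ± 101 CPM (edgeR adjusted p = 4.68e-05). Entpd1, the nucleotide-degrading enzyme CD39, was at 2.57 ± 0.792 and 8.43 ± 5.85 CPM, 1.72 higher on the log2 scale (edgeR adjusted p = 0.0137), with Vgll3 replicate 3 highest at 15.1 CPM, and its log2 fold change was 1.00 without that library.

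**Figure D4:**
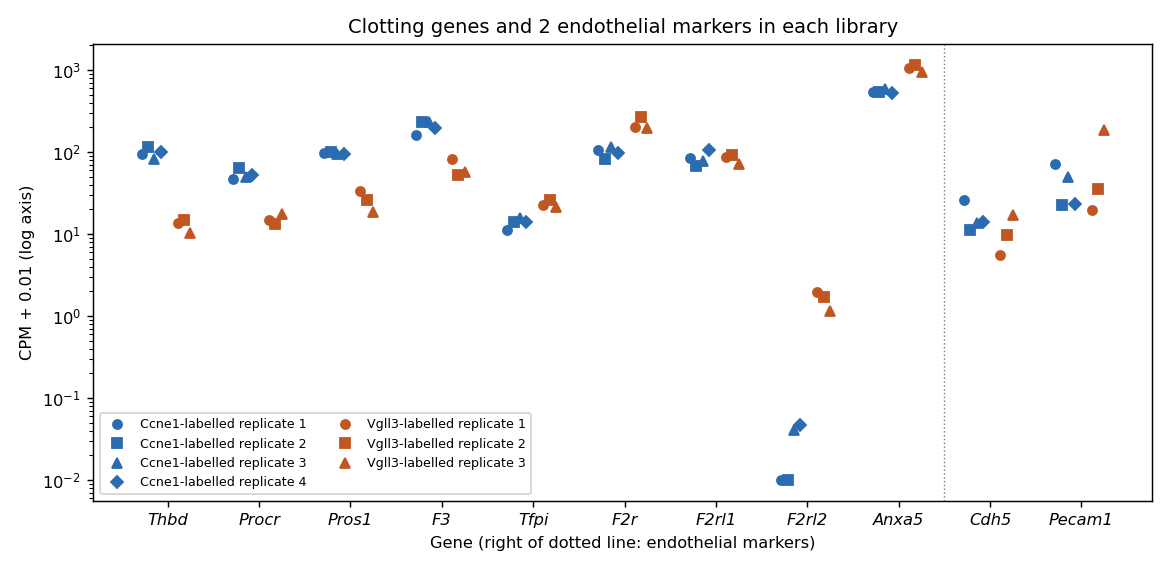
CPM (plus 0.01, log axis) of 9 clotting genes and 2 endothelial markers, 1 point per library (blue, 4 Ccne1-labelled; orange, 3 Vgll3-labelled; shape gives the replicate). Thbd, Procr, Pros1 and F3 are lower and Tfpi, F2r, F2rl2 and Anxa5 higher in all Vgll3-labelled libraries, while F2rl1, Cdh5 and Pecam1 overlap between groups.

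Several of these genes, Thbd, Procr, Tfpi and Plat among them, are also known from vessel lining, so endothelial markers were set beside them. In bulk libraries fewer cells of a type and less RNA per cell cannot be told apart. All 10 endothelial markers were tested and 0 passed in edgeR, at an unadjusted p of 0.05, in DESeq2 or in limma-voom, with overlapping sums of 47.9 to 132 CPM in the Ccne1-labelled and 31.6 to 226 CPM in the Vgll3-labelled libraries, where Pecam1 made up 184 of the 226 CPM in Vgll3 replicate 3. The median log2 fold change of these 10 markers was −0.43. Without Pecam1 the sums were 25.6 to 60.7 and 11.996 to 42.6 CPM. Cdh5, the cadherin of endothelial junctions, was at 16.3 ± 6.70 and 10.8 ± 5.88 CPM (edgeR adjusted p = 0.300), and Vwf at 11.4 ± 4.70 and 9.73 ± 4.51 CPM (edgeR adjusted p = 0.676). The part of endothelial RNA in the levels of these genes was not tested. Of 7 pericyte and smooth muscle markers 6 were tested, 3 higher (Rgs5, Notch3 and Des) and 1 lower (Cspg4), beside 51.9% called in the whole table, with a median log2 fold change of 0.23. Their sum was 459 to 552 against 147 to 174 CPM, nearly all of it Cspg4 at 513 ± 42.3 and 140 ± 10.2 CPM, so the list had no common direction, and its part in the results was not tested. Hba-a1, the most abundant of 6 red cell markers, was at 4.27 to 9.95 and 0.189 to 1.07 CPM (edgeR adjusted p = 0.00241), and Krt8, the highest of 6 epithelial markers (Krt5 had 0 counts), at 1.64 to 3.92 and 0.0378 to 0.167 CPM (edgeR adjusted p = 0.000291), and their part in the results was not tested. Krt8 passed the low-count filter only through the Ccne1-labelled libraries.

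Other serpins were called in both directions. Of 41 other serpins 14 were tested, 3 higher and 4 lower, with a median log2 fold change of −0.46. That is 7 of 14 called, near the background of 51.9%. Higher were Serpina1d, an antitrypsin gene (0.461 ± 0.128 to 14.0 ± 4.63 CPM, 4.88 on the log2 scale, edgeR adjusted p = 8.36e-06), Serpinb9, the granzyme B inhibitor (1.67 ± 0.277 to 10.8 ± 1.34 CPM, 2.69 on the log2 scale, edgeR adjusted p = 1.06e-05), and Serpinh1, the collagen chaperone HSP47 (940 ± 66.1 to 1488 ± 37.8 CPM, 0.66 on the log2 scale, edgeR adjusted p = 0.000196). The Serpina1, Serpina3, Serpinb6 and Serpinb9 genes each belong to clusters of related paralogs, which may share reads, so the value of any single paralog is uncertain. How many reads were shared was not tested. Serpinb9b, a paralog of Serpinb9, was lower at 0.696 ± 0.151 against 1.31 ± 0.155 CPM (edgeR adjusted p = 0.0458), opposite to Serpinb9.

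Serpina3n, a secreted inhibitor of leukocyte proteases, was lower (7.26 ± 3.57 to 1.15 ± 0.507 CPM, −2.64 on the log2 scale, edgeR adjusted p = 0.00552), as was Serpinb6b (16.4 ± 3.25 to 8.08 ± 3.21 CPM, edgeR adjusted p = 0.0225). Serping1, the complement C1 inhibitor that also blocks plasma kallikrein, was at 20.6, 20.9, 11.4 and 3.81 CPM and at 4.13, 0.491 and 1.70 CPM, with overlap (log2 fold change −2.70, edgeR adjusted p = 0.0386). Serping1 was no longer called when Ccne1 replicate 1, 2 or 3 was left out, nor without Vgll3 replicate 2 or 3 (edgeR adjusted p from 0.0651 to 0.114). Its call also ended in limma-voom (adjusted p = 0.0682) and in edgeR without the low-count filter (adjusted p = 0.101). The same held for Serpinb6b without Ccne1 replicate 2, 3 or 4 and without Vgll3 replicate 2 (edgeR adjusted p from 0.05004 to 0.0554), and for Serpinb9b when any 1 of the 7 libraries was left out (edgeR adjusted p from 0.0569 to 0.103). Without the low-count filter neither of these was called (edgeR adjusted p = 0.0714 and 0.114), nor was Serpinb9b under upper-quartile scaling (edgeR adjusted p = 0.0620).

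Finally, the genes whose profile over the 7 libraries lay nearest to Serpinf1, Plat and Plau, the 3 of the 9 with the highest mean CPM over all 7 libraries (in the Ccne1-labelled ones alone F3 was highest), were found by root mean square difference of centred log2 CPM among 12124 genes. For Plat they were Cped1 (0.086), Gm8773 (0.100) and Col1a1 (0.107), and for Serpinf1 Col1a2 (0.111), Nod1 (0.115) and Fbn1 (0.118). For Plau, with its low Vgll3-labelled replicate 3, the nearest were farther, Col8a1 (0.221), Pde3b (0.227) and Fkbp1b (0.236). Each of these 9 genes was higher in the Vgll3-labelled libraries, which follows from the way they were found.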

How the data were processed

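PolyA RNA was sequenced from RFP-sorted tumour cells in 4 Ccne1-labelled and 3 Vgll3-labelled libraries, grouped by sample title. The authors deposited estimated counts per Ensembl gene, not scaled between libraries. They used Salmon and mm10, per the submitters' processing notes. For the Salmon version, annotation, strand setting and summing tool, the sources used here give nothing, so antisense or overlapping genes may share reads. All deposited values were whole and 0 needed rounding. Symbols, coordinates and exon lengths came from GENCODE M21 on the same build, which matched 35493 of 35727 IDs. Pairs of libraries within a group differed by more than counting noise, with a chi-square of 11.7 to 88.9 for each degree of freedom.

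The count test was edgeR 4.0.16 in R 4.3.3, with filterByExpr, TMM scaling, robust quasi-likelihood fits and Benjamini-Hochberg adjustment over 13740 genes. Each SE was taken from the F statistic of the gene (fold change size on the log2 scale over root F). The prior count was 0.5 for log2 CPM in permutation tests and ratios. A count of 0 was read as up to 3 counts (0.0577 to 0.136 CPM, counting error only). The members and gene lists were chosen with earlier results of these data known. The named genes were the members, label checks, the called plasminogen genes, the 4 most raised and lowered called clotting and other serpin genes of at least 1 CPM, and the leading marker of each list. Others, such as Anxa2, F2rl1, F5, F7, F8, Proc, Vwf, Cdh5, Rgs5, Notch3, Des, Serpind1 and Lman1, were named outside this rule. Of 4 ratios tested 3 are given; 1 item is not reported here. Alternatives used DESeq2 1.42.0, limma 3.58.1 with voom, other scalings, no filter, a replicate block, and each library left out. On simulated counts over 13549 genes, edgeR recovered 16 of 73 genes at 1.5-fold, 50 of 64 at 2-fold and 54 of 63 at 4-fold. There were 12 false among 132 calls. Only these few genes were changed in the simulation, against 51.9% of tested genes called in the data, so its rates do not carry over to them.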

Additional observations from a re-analysis of the deposited data

Results flagged for a closer look

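Among 32 sets of the 4 Ccne1-labelled libraries that were examined (genes named above and ratios), 1 held a value far from the others. Vgll3 in Ccne1 replicate 1 was at 37.9 CPM, while the other 3 libraries of that label lay between 54.3 and 56.2 CPM. The gap was 0.895 of the whole range, above Dixon's limit for 4 values. Chance gives such a value in about 5% of sets.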

How the results depend on the processing

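Leaving out 1 library at a time, using RLE or upper-quartile scaling, DESeq2, limma-voom, no low-count filter or the replicate block changed no call or direction of the 7 called members. Serpinb2 ran from −2.45 to 0.42 on the log2 scale without 1 library each, and the ratio differences from −0.10 to 0.58 (Plau over Plat), −2.05 to −0.53 (Serpine2 over Plau) and 2.26 to 2.69 (Tfpi over F3). Counts of other plasminogen genes ran from 1 to 2 higher and from 1 to 2 lower without 1 library each, against 2 and 1, and DESeq2 called 3 lower. Other serpins called lower ran from 1 to 5 without 1 library each, against 4, and were 1 without the low-count filter. Same-numbered libraries did not deviate together (correlations of −0.141, −0.159 and −0.0981 for numbers 1 to 3). So few pairs cannot settle whether the numbers pair them. With the replicate block 4841 genes were called against 7133, 1 other plasminogen gene was higher, 2 other serpins were lower, and the calls for S100a10, Eno1, Entpd1, Serpinb6b and Serpinb9b ended (edgeR adjusted p from 0.0677 to 0.194). In that block Ccne1 replicate 4 has no Vgll3-labelled partner, so it adds nothing to the estimate, and fewer residual degrees of freedom remain. How far this or anything else accounts for these changes was not tested. Without 1 library the exact permutation test of a ratio cannot pass 0.05. Depth limits genes near 3 counts (0.0577 to 0.136 CPM), such as Plg and Proc.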
